A study of Mus musculus with 24 samples.

Results

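The transcripts of 10 neuropeptide receptors that serve stress and social signalling were followed in the mouse lateral septum: Crhr1, Crhr2, Avpr1a, Oxtr, Oprk1, Oprm1, Oprd1, Mc4r, Glp1r and Ntsr2. They were chosen by gene symbol from the 28859 genes of the deposited count table. All 10 were found there, and all 10 passed the filter on low counts, which left 18060 genes. The tissue came from male C57BL/6J mice labelled with a single age range of 8 to 14 weeks. In 4 groups, mice had undergone chronic social defeat stress (CSDS) up to day 1, day 4, day 7 or day 10: once a day they met an aggressive CD-1 male for 10 minutes, and a clear barrier then kept the pair apart. The other 4 groups were unstressed controls, age-matched to each of those days. Each of the 8 groups had 3 libraries, 24 in all, of poly(A)-selected RNA, with no transgene or drug in any group. The labels do not say whether a library is 1 mouse or a pool, so the p-values measure the spread between libraries.

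The lateral septum is a forebrain nucleus of inhibitory neurons that links the hippocampus with the hypothalamus and is known for its part in social behaviour, fear and stress. Much of its peptide input arrives along axons from other regions. The receptor transcripts were measured in the dissected tissue, in which genes of neighbouring structures were also read. All 10 receptors are G protein-coupled. Receptors for corticotropin-releasing hormone (CRH), for melanocortins and for glucagon-like peptide 1 mainly raise cyclic AMP through Gs, those for vasopressin and oxytocin signal mainly through Gq, and opioid receptors lower cyclic AMP through Gi and Go.

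Total counts ran between 31182747 and 41205354 per library, with a median of 38196571. Markers of lateral septum neurons were present in every library: Zic1 lay between 364 and 664 CPM (counts scaled to library size), Trpc4 between 80.3 and 158 CPM and Prdm16 between 67.6 and 147 CPM. Genes of neighbouring structures varied far more. The choroid plexus score, the mean log2 CPM of 12 marker genes, split the libraries into 13 with low values (0.30 to 3.18) and 11 with high values (5.19 to 6.87). These were not evenly spread over CSDS and control libraries. The median score of CSDS and control libraries was 2.93 and 0.49 on day 1 and 1.40 and 5.38 on day 4. It was 5.19 and 0.45 on day 7 and 1.22 and 6.51 on day 10. The striatum score, over 9 marker genes, ran from 4.66 to 6.28, and the cortex and hippocampus score, over 8 genes, from 0.51 to 4.13. In tissue RNA, fewer cells of a type and less RNA per cell cannot be told apart.

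Among the 10 receptors, Ntsr2 and Glp1r were the most abundant per transcript length. Ntsr2, a neurotensin receptor that in rodent brain is made largely by astrocytes, averaged 60.8 ± 8.13 FPKM (SD, n = 24; range 45.2 to 77.9). FPKM are fragments scaled to transcript length and library size. Glp1r, the receptor for glucagon-like peptide 1, averaged 13.3 ± 2.99 FPKM (range 7.52 to 18.0). Each of these exceeded the next receptor in the order in 24 of 24 libraries, with no overlap of the ranges.

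The remaining 8 receptors lay below Glp1r, and neighbours in their order overlapped. Crhr2, the receptor preferred by urocortins 2 and 3, averaged 4.08 ± 0.865 FPKM and exceeded Oxtr in 19 of 24 libraries. Oxtr, the oxytocin receptor, averaged 3.18 ± 0.470 FPKM and exceeded Avpr1a, the V1a vasopressin receptor, in 13 of 24 libraries. Avpr1a itself averaged 2.94 ± 0.524 FPKM. These middle receptors therefore formed a group whose order changed between libraries.

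The opioid receptors, the melanocortin receptor and Crhr1 were the least abundant. Oprk1, the kappa receptor for dynorphins, averaged 1.95 ± 0.657 FPKM, and Oprd1, the delta receptor for enkephalins, averaged 1.58 ± 0.296 FPKM. Mc4r, which responds to the melanocortins cut from Pomc, averaged 1.26 ± 0.223 FPKM. Crhr1, the receptor with high affinity for CRH, averaged 1.12 ± 0.268 FPKM, so that per length Crhr2 exceeded it in the mean. Oprm1, the mu receptor, was lowest at 0.826 ± 0.297 FPKM, with a range of 0.344 to 1.52 FPKM. Counting error bears most on Oprm1 and Mc4r, whose lowest libraries held 78 and 84 reads.

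**Figure D1:**
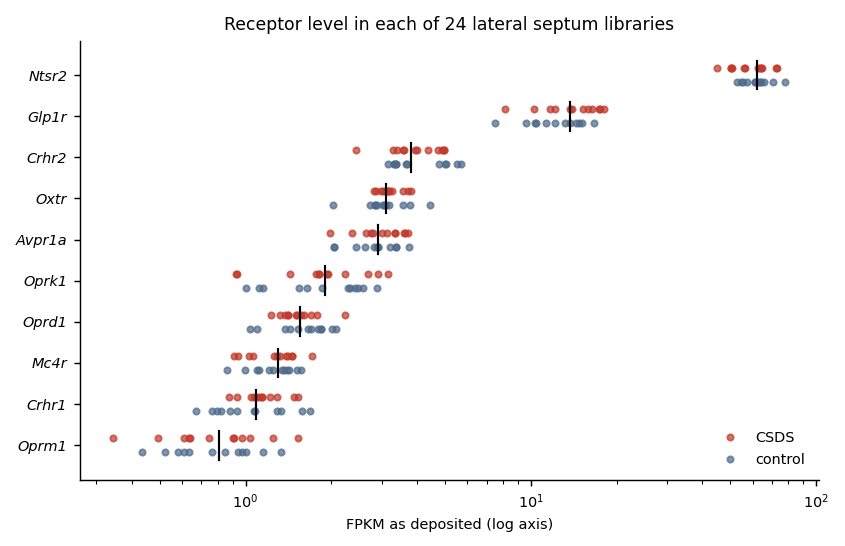
Receptor levels in FPKM as deposited, on a log axis, 1 point per library (12 CSDS libraries above, 12 control libraries below in each row) and a bar at the median of all 24. Ntsr2 (45.2 to 77.9 FPKM) and Glp1r (7.52 to 18.0 FPKM) stand clear of the rest, while the other 8 rows overlap their neighbours.

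Sequences upstream of the start site are shown for 4 receptors whose level differed between days, as described further on, so that their promoters can be compared. Each is the 250 bases before a RefSeq start site on GRCm38.p6, written 5′ to 3′ on the gene's strand, with matches to the motifs searched in capitals. Oprm1 has several such start sites, and the window shown lies before the most upstream of them. Windows of 8 of the 10 receptors were searched, and Oprk1 and Mc4r were left out.
Oprm1, chr10:6758343-6758592, plus strand: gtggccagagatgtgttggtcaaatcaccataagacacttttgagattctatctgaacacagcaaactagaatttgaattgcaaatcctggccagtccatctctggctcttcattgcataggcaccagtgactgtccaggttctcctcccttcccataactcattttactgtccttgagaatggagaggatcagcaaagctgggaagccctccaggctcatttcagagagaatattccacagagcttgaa
Crhr1, chr11:104132531-104132780, plus strand: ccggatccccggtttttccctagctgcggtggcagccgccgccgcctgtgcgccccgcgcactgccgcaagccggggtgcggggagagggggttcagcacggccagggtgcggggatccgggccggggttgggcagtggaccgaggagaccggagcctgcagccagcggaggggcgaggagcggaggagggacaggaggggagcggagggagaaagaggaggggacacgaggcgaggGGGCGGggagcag
Crhr2, chr6:55133017-55133266, minus strand: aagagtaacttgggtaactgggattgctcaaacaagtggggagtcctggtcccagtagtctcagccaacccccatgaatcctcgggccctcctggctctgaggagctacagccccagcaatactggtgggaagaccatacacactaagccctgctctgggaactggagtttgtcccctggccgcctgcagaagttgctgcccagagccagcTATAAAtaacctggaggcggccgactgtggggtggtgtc
Ntsr2, chr12:16653220-16653469, plus strand: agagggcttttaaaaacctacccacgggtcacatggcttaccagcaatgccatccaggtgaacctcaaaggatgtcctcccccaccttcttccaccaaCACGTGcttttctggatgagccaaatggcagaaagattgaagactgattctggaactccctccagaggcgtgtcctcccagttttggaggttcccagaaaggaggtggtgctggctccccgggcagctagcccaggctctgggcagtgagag
The motifs were searched on both strands: the cyclic AMP response element TGACGTCA and its core TGACG, which lies within it, the E-box CACGTG, the Egr motif GCGTGGGCG, the palindromic glucocorticoid response element, the GC box GGGCGG and the TATA box TATAAA. The Crhr2 window holds a TATA box that begins at base -39 from the start, a motif found in 12.4% of 32851 windows of the same length. The Ntsr2 window holds an E-box at -152, found in 6.02% of windows. The Crhr1 window holds a GC box at -13, found in 32.7% of windows and overlapping no other match. The Oprm1 window shown, and the windows before its further start sites, hold none of the motifs searched. Among the receptors not printed, Avpr1a has the core TGACG, present in 17.8% of windows, and a TATA box, Oxtr and Oprd1 each have an E-box with 1 or more GC boxes, and Glp1r has 3 GC boxes. None of the receptor windows searched held TGACGTCA, GCGTGGGCG or the glucocorticoid response element, which occur in 1.55%, 0.536% and 0.387% of windows.

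The first comparison asked whether social defeat changed receptor transcripts on any day. None of the 10 receptors passed edgeR's quasi-likelihood test at a Benjamini-Hochberg adjusted p under 0.05 on any of the 4 days, in the mean of the 4 daily differences, or in the F test of whether the response differed between days. Few genes of any kind passed: 0.00554% on day 1, 0.111% on day 4, 0.00554% on day 7, 0.166% on day 10, 0.116% in the mean and 0.0221% in the F test. Of the 40 daily tests of receptors, 2 had an unadjusted p under 0.05, both on day 7, where 4.28% of all genes did, against 7.88%, 8.33% and 12.8% on days 1, 4 and 10. In the mean and in the F test no receptor had one, where 6.47% and 11% of all genes did. DESeq2 also called none of the 10 in any of these comparisons. The 95% intervals of all 40 daily log2 fold changes lay between -0.85, for Oprk1 on day 10, and 0.96, for Glp1r on day 1.

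Of the CRH receptors, Crhr1 showed the clearest separation of libraries. On day 7 it had 8.51, 8.85 and 9.26 CPM in CSDS libraries, against 7.67, 6.25 and 6.46 CPM in controls. On day 10 it had 10.1, 8.66 and 9.52 CPM in CSDS libraries, against 5.72, 8.60 and 8.59 CPM in controls. On both days every CSDS library lay above every control library, on day 10 by a narrow margin and with 1 control far below the other two.

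The log2 fold change of Crhr1 was 0.39 on day 7 (SE 0.16, adjusted p = 0.999 by edgeR) and 0.30 on day 10 (SE 0.16, adjusted p = 0.445). On day 1 it was -0.12 (SE 0.16) and on day 4 it was -0.05 (SE 0.16), where the libraries overlapped. Whether the response of Crhr1 varied with the day was tested by an F test, with an adjusted p of 0.519. Groups of 3 that do not overlap were common among all genes, at 9.83% on day 7 and 15.6% on day 10.

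Crhr2 did not follow Crhr1. On day 4 it had 10.2, 11.1 and 7.55 CPM in CSDS libraries, against 14.7, 11.5 and 10.3 CPM in controls, so that the groups overlapped and 1 CSDS library was lowest. Its log2 fold change there was -0.34 (SE 0.17, adjusted p = 0.645), and on the other days it lay between -0.09 and 0.15. Averaged over the 4 days, Crhr1 differed by 0.13 (95% interval -0.04 to 0.30) and Crhr2 by -0.06 (-0.24 to 0.12).

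For the vasopressin and oxytocin receptors, CSDS and control libraries overlapped on all 4 days. Avpr1a averaged 9.08 ± 0.810 CPM in CSDS libraries and 7.86 ± 1.28 CPM in controls on day 7, and 9.24 ± 0.904 CPM in CSDS libraries and 8.07 ± 0.869 CPM in controls on day 10 (SD, n = 3 each). The log2 fold changes were 0.21 and 0.20 (SE 0.21 each, adjusted p = 0.999 and 0.698). Averaged over days, Avpr1a differed by 0.06 (-0.16 to 0.27) and Oxtr by 0.04 (-0.12 to 0.21). For Oxtr that interval leaves out a change of more than 0.21 on the log2 scale in either direction.

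The opioid receptors gave no call either. Oprd1 on day 7 had 10.8, 9.11 and 10.7 CPM in CSDS libraries, against 13.8, 11.7 and 10.9 CPM in controls. All 3 CSDS libraries lay below the controls, the nearest pair by a small margin, and the log2 fold change was -0.25 (SE 0.20, adjusted p = 0.999). Across the 4 days Oprd1 differed by -0.08 (-0.29 to 0.14), Oprk1 by -0.03 (-0.31 to 0.26) and Oprm1 by -0.00 (-0.21 to 0.21). The interval of Oprk1 was the widest of the 10. Of the 10 receptors this one also had the largest r with the striatum score, as given further on. Whether these facts are linked was not tested.

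Glp1r had the largest daily difference among the receptors. On day 1 it had 16.3, 26.6 and 23.6 CPM in CSDS libraries, against 21.6, 11.2 and 15.3 CPM in controls. The groups overlapped, since the lowest CSDS library lay below the highest control. The log2 fold change was 0.47 (SE 0.24, 95% interval -0.02 to 0.96, adjusted p = 0.642), and its lowest adjusted p over all settings was 0.284, with control replicate 1 of day 1 left out. The lateral septum neuron score, the mean log2 CPM of 6 marker genes, was higher in the median of the CSDS libraries of that day. It had a median of 6.44 (range 6.20 to 6.53) there and of 6.16 (6.02 to 6.55) in its controls. Over the 6 libraries of day 1, Glp1r had r = 0.92 with this score, a relation added after the data had been seen. The part of this score in the Glp1r difference was not tested.

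Ntsr2 had the tightest intervals. On day 7 it had 72.3, 78.9 and 89.6 CPM in CSDS libraries, against 98.9, 92.1 and 84.2 CPM in controls, with 1 pair overlapping. The log2 fold change was -0.19 (SE 0.09, adjusted p = 0.999 by edgeR). Over the 4 days it differed by -0.09 (-0.19 to 0.00, adjusted p = 0.771), and Mc4r by -0.01 (-0.21 to 0.18). No receptor therefore had a mean difference whose interval reached beyond 0.42 in size, the upper bound for Glp1r.

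**Figure D2:**
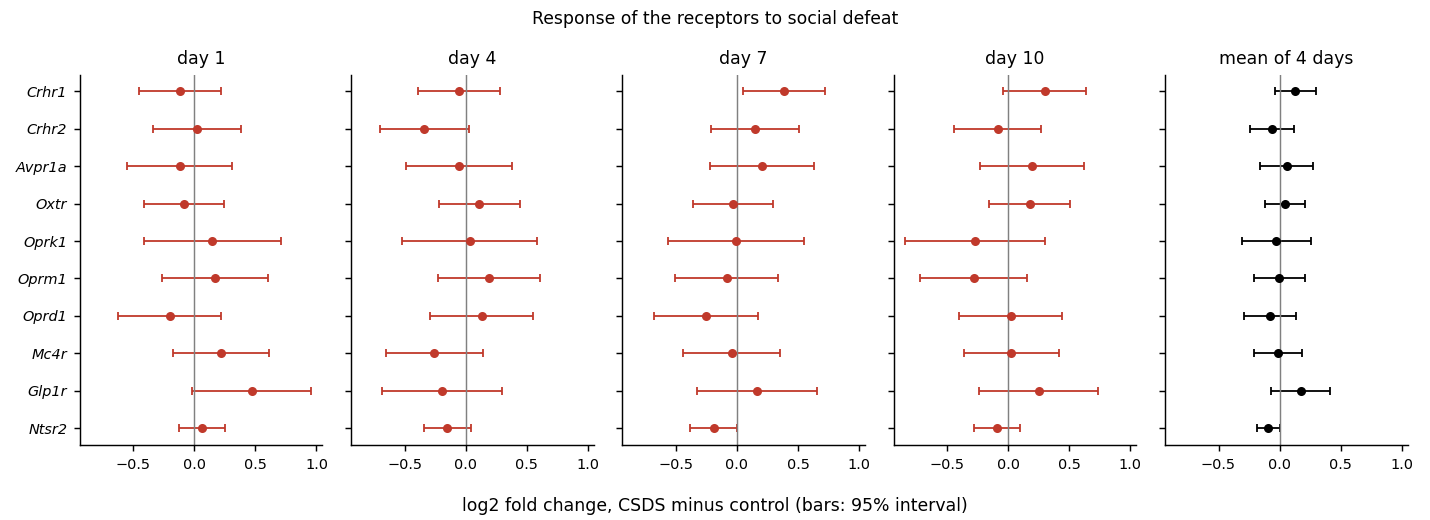
Log2 fold change of each receptor, CSDS minus control, on each day and as the mean of the 4 days, with 95% intervals from edgeR. Nearly all intervals cross 0; on day 7 those of Crhr1 (0.39) and Ntsr2 (-0.19) do not, and neither passed after adjustment over all genes.

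The second comparison followed the receptors across the 4 days within each condition. Among CSDS mice, 4 of 10 receptors differed between days, against 47.9% of all genes tested, and among controls 4 of 10, against 40.7%. With both conditions averaged, a test added after the data had been seen, 5 of 10 differed, against 60.6% of all genes. The receptors were thus called no more often than genes at large, and the values below describe single genes. The day cannot be told apart from age, batch or anything else that differed between the days.

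Oprm1 varied most between days. On days 1, 4, 7 and 10 it averaged 3.77 ± 0.373, 7.34 ± 1.38, 5.36 ± 0.286 and 2.85 ± 0.814 CPM in CSDS libraries (SD, n = 3 each). On the same days it averaged 3.35 ± 0.396, 6.45 ± 1.41, 5.68 ± 0.201 and 3.44 ± 0.886 CPM in controls. The 12 libraries of days 4 and 7 lay between 4.90 and 8.77 CPM, while the 12 of days 1 and 10 lay between 1.99 and 4.39 CPM. Those ranges do not overlap, and they hold the libraries of both stressed and unstressed mice. The days were grouped in this way after the values had been seen. How many of all genes separate likewise was not counted.

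The F test over days gave Oprm1 an adjusted p of 8.6e-05 among CSDS mice and 0.00108 among controls by edgeR. Averaged over conditions, its log2 difference was 0.95 for day 4 minus day 1 (SE 0.15, adjusted p = 3.3e-05) and -1.13 for day 10 minus day 4 (SE 0.15, adjusted p = 2.3e-06). Of the spread of its log2 CPM over the 24 libraries, 79.2% lay between days and 3.51% between CSDS and control within days, against medians of 42.6% and 10.8% over all genes.

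Oprk1 took a like course. On days 1, 4, 7 and 10 it averaged 8.90 ± 0.969, 12.7 ± 2.97, 10.2 ± 2.31 and 5.31 ± 1.46 CPM in CSDS libraries (SD, n = 3 each). On the same days it averaged 8.05 ± 3.41, 12.4 ± 1.37, 10.2 ± 2.09 and 6.40 ± 2.08 CPM in controls. Its mean was highest on day 4, as for Oprm1, and lowest on day 10 in both conditions, but here libraries of neighbouring days overlapped.

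The adjusted p over days was 0.00567 for Oprk1 among CSDS mice and 0.0347 among controls by edgeR. Its log2 difference for day 10 minus day 4 was -1.10 (SE 0.19, adjusted p = 9.3e-05), and for day 4 minus day 1 it was 0.56 (SE 0.19, adjusted p = 0.0253). The second of these was lost without control replicate 1 of day 1, CSDS replicates 2 or 3 of day 4 or control replicate 1 of day 4, with an adjusted p of up to 0.0698. The call among controls was lost without control replicate 3 of day 1, without control replicates 1 or 2 of day 4, or without control replicates 1 or 2 of day 10, with an adjusted p of up to 0.107. Oprd1, the remaining opioid receptor, did not pass over days (adjusted p = 0.152 among CSDS mice and 0.822 among controls).

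Crhr1 was highest on day 1. Its 6 libraries of that day lay between 10.4 and 13.1 CPM, with means of 11.2 ± 0.733 in CSDS libraries and 12.2 ± 1.25 in controls. On day 4 the range was 6.70 to 10.6 CPM, on day 7 it was 6.25 to 9.26 CPM and on day 10 it was 5.72 to 10.1 CPM. The day 1 libraries thus lay above all others except for a single control of day 4, which overlapped the lowest of them.

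Averaged over conditions, Crhr1 differed by -0.55 for day 4 minus day 1 (SE 0.11, adjusted p = 7.4e-04), by -0.59 for day 7 minus day 1 (SE 0.11, adjusted p = 3.4e-04) and by -0.46 for day 10 minus day 1 (SE 0.11, adjusted p = 0.0028). Within conditions the F test passed among controls (adjusted p = 0.00124) and missed the threshold among CSDS mice (adjusted p = 0.0605). That contrast is no evidence of a different course, since the test of the difference itself gave 0.519.

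Crhr2 was highest on day 10, when Crhr1 was not. Its 6 libraries of day 10 lay between 15.0 and 17.3 CPM, against 9.78 to 16.5 on day 1, 7.55 to 14.7 on day 4 and 10.5 to 13.3 on day 7. Only 1 control of day 1 reached into the range of day 10. The log2 difference for day 10 minus day 4 was 0.55 (SE 0.12, adjusted p = 9.1e-04) and for day 10 minus day 7 it was 0.47 (SE 0.12, adjusted p = 0.00333). The marker scores of lateral septum neurons and of astrocytes, mean log2 levels of their lists, also differed between days. On day 10 they ran from 6.57 to 6.97 and from 8.21 to 8.43, above 6.02 to 6.55 and 7.99 to 8.19 on day 1. On day 4 they ran from 6.29 to 6.54 and from 8.02 to 8.22, and on day 7 from 6.35 to 6.72 and from 8.11 to 8.31. Both day 7 ranges and the astrocyte range of day 4 overlapped those of day 10. Neither score was a covariate in any fit. The part of these scores in the differences between days was not tested.

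Over days, Crhr2 had an adjusted p of 0.0201 among CSDS mice and 0.0386 among controls. The call among controls held in 13 of 24 fits that left out 1 library. It was lost without any 1 control of day 7 or day 10 (adjusted p of up to 0.143), without control replicates 2 or 3 or CSDS replicate 3 of day 1, or without CSDS replicates 2 or 3 of day 10. Among CSDS mice it was lost without replicate 3 of day 4 or without replicates 2 or 3 of day 10, with an adjusted p of up to 0.0806.

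Ntsr2 was lower on days 4 and 7 than on days 1 and 10. On days 1, 4, 7 and 10 it averaged 108 ± 9.59, 82.8 ± 5.43, 80.3 ± 8.75 and 103 ± 2.46 CPM in CSDS libraries (SD, n = 3 each). On the same days it averaged 103 ± 4.13, 91.9 ± 6.98, 91.7 ± 7.36 and 109 ± 13.6 CPM in controls. Its course ran opposite to that of Oprm1, and its steps were smaller, at -0.28 for day 4 minus day 1 (SE 0.06, adjusted p = 0.00206) and 0.30 for day 10 minus day 7 (SE 0.06, adjusted p = 6.4e-04). The F test passed for Ntsr2 among CSDS mice (adjusted p = 7.6e-04) and missed the threshold among controls (adjusted p = 0.0559). As for Crhr1, that is no evidence of a different course, since the F test of a differing response gave an adjusted p of 0.653.

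Between day 4 and day 7 no receptor was called, where 0.072% of all genes were, against 33.6% for day 4 minus day 1 and 44.8% for day 10 minus day 4. At an unadjusted p under 0.05, which 7.2% of all genes reached, Oprm1 (-0.32) and Oprd1 (-0.31) were lower on day 7 than on day 4, and DESeq2 called none. Mc4r was called at the edge for day 7 minus day 1 (-0.34, adjusted p = 0.0499, where 37.2% of genes were called) and for day 10 minus day 7 (0.37, adjusted p = 0.0268, where 45.4% were called), although its F test over days gave 0.0599. Over the 24 fits without 1 library the first of these calls held in 5 and the second in 17, with an adjusted p of up to 0.166 and 0.091. Avpr1a, Oxtr, Oprd1 and Glp1r passed no comparison between days.

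**Figure D3:**
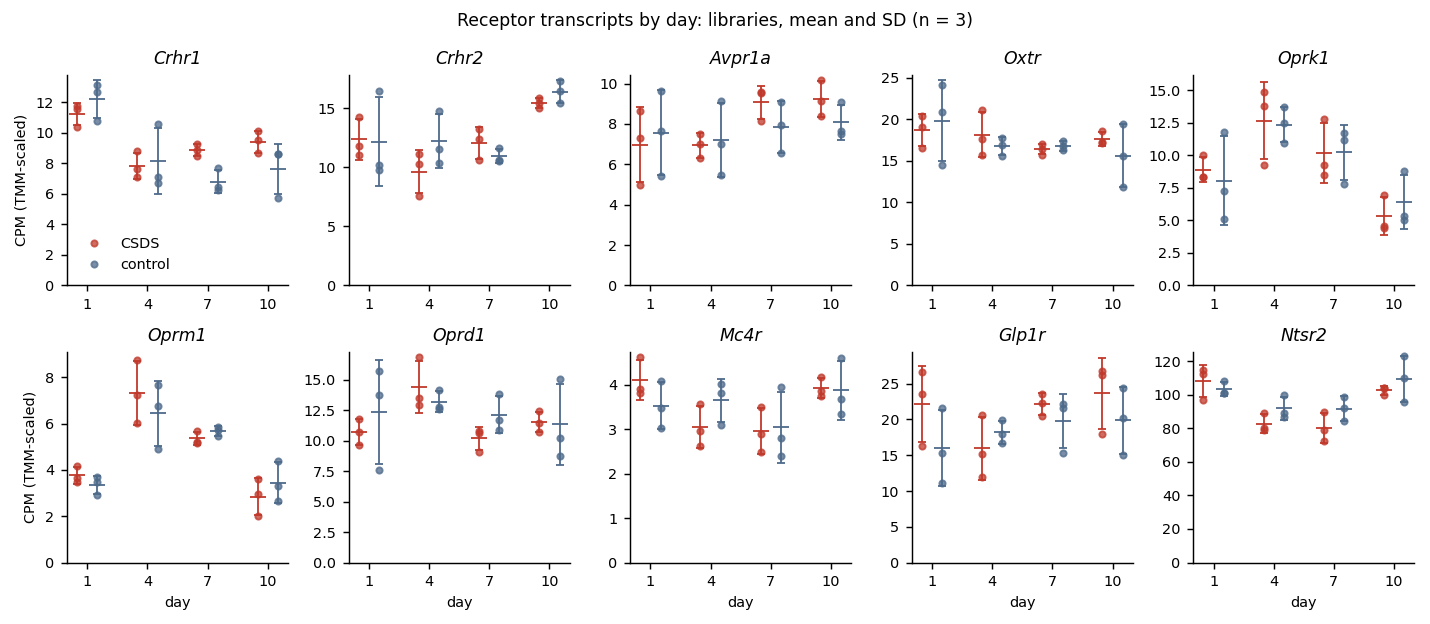
CPM of each receptor by day, with CSDS libraries on the left and control libraries on the right of each day, 3 points a group and a bar at the mean with its SD. Oprm1 and Oprk1 have their highest means on day 4 in both conditions, Oprk1 its lowest on day 10, Crhr1 is highest on day 1 and Crhr2 on day 10.

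**Figure D4:**
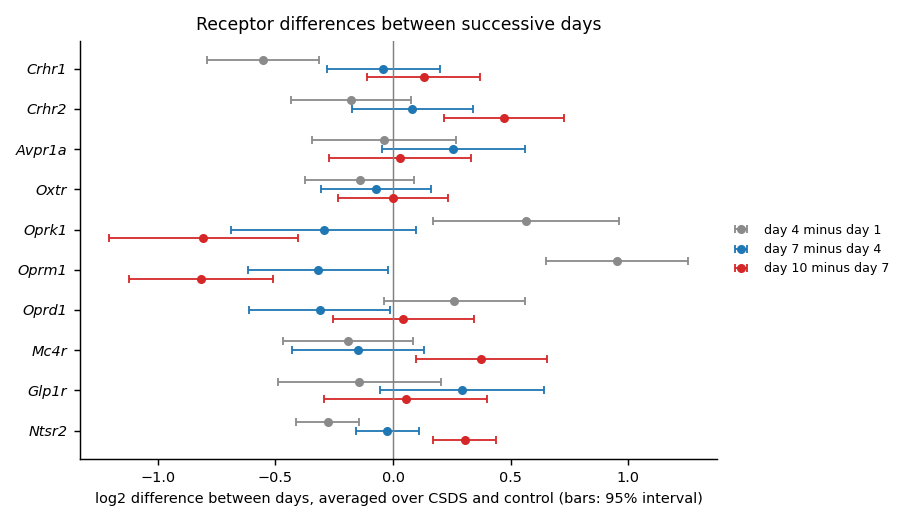
Log2 differences between successive days, averaged over CSDS and control libraries, with 95% intervals. Oprm1 (0.95) and Oprk1 (0.56) rise between days 1 and 4 and fall between days 7 and 10, when Crhr2 (0.47), Mc4r (0.37) and Ntsr2 (0.30) rise.

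Gene length and neighbouring tissue moved with the day differences. Over all genes, Spearman's rho between length and the log2 difference was 0.29 for day 4 minus day 1 and -0.31 for day 10 minus day 4, so that longer genes tended to be higher on day 4. Oprm1 has an implied transcript length of 5.78 kb, and the median difference of genes in its length decile for day 10 minus day 4 was -0.04, against -1.13 for Oprm1. Ntsr2 is short, at 1.59 kb, and its 0.28 stood beside a median of 0.18 for its length decile.

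With the trend on length removed in each library, a setting added after the data had been seen, Oprm1 differed by -1.07, Oprk1 by -1.07 and Crhr2 by 0.50 for day 10 minus day 4, and all were still called. Ntsr2 then differed by 0.15 (adjusted p = 0.0812) and for day 4 minus day 1 by -0.12 (adjusted p = 0.205), and its test over days among controls gave an adjusted p of 0.546, while averaged over both conditions it stayed at the edge of the threshold (adjusted p = 0.0492). Crhr2 among controls gave 0.0608.

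With the choroid plexus, cortex and striatum scores as covariates, Oprm1 differed by -0.93 for day 10 minus day 4 (adjusted p = 5.2e-05) and Oprk1 by -0.64 (adjusted p = 3.2e-04), against -1.10 without them. For day 10 minus day 1, Oprk1 differed by -0.14 with the covariates (adjusted p = 0.383), against -0.53 without them, and Crhr2 by 0.25 (adjusted p = 0.075), against 0.38. In that comparison Crhr1 alone of the 3 receptors called, with 39.6% of all genes called, was still called (-0.40, adjusted p = 0.0152). Without the covariates, the Crhr2 call there was lost when control replicate 2 or 3 of day 1 was left out (adjusted p of up to 0.053), and that of Oprk1 held in 18 of 24 such fits (adjusted p of up to 0.172, without control replicate 2 of day 1). Crhr2 among controls gave 0.102 with the covariates.

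The receptors were then set against the regional scores over the 24 libraries, with 60 relations in the family and permutation p-values adjusted over it. The permutations moved libraries across days and conditions. A shift between days that a receptor and a score share therefore also enters these p-values. Oprk1 rose with the striatum score (r = 0.75, rho = 0.75, adjusted permutation p = 4.0e-04 and 0.0018), and r was 0.66 without the 2 libraries farthest from the median score. Within single days r was 0.94, 0.65, 0.89 and 0.76 for days 1, 4, 7 and 10. Oprd1 also rose with it (r = 0.60, rho = 0.54, adjusted permutation p = 0.0207 and 0.0481, and 0.57 without the 2 farthest), on 4 of 4 days. For Oprm1 the relation did not pass (r = 0.50, rho = 0.45, adjusted permutation p = 0.092 and 0.135) and r was 0.27 without the 2 farthest. The median striatum score was 5.73, 5.80, 5.37 and 5.09 on days 1, 4, 7 and 10.

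Avpr1a ran the other way. It fell with the striatum score (r = -0.70, rho = -0.69, adjusted permutation p = 0.0018 and 0.00444, and -0.73 without the 2 farthest), with the same sign on 3 of 4 days. With the lateral septum neuron score, a relation added after the data had been seen, Avpr1a rose (r = 0.80, rho = 0.81, adjusted permutation p = 3.0e-04 and 6.0e-04, and 0.74 without the 2 farthest). Glp1r rose with it as well (r = 0.79, rho = 0.68, adjusted permutation p = 3.0e-04 and 0.00435, and 0.69 without the 2 farthest). Both relations had the same sign on 4 of 4 days. Crhr2 also passed with this score (r = 0.57, rho = 0.71, adjusted permutation p = 0.0257 and 0.0018, and 0.50 without the 2 farthest), with the same sign on 3 of 4 days.

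No receptor passed with the cortex and hippocampus score. With the astrocyte score, a set of relations added after the data had been seen, none passed by Pearson's r and Oprk1 passed by Spearman's rho alone (r = -0.47, rho = -0.55, adjusted permutation p = 0.126 and 0.0481, and r = -0.55 without the 2 farthest). Within days that relation did not keep its sign, with r = 0.83 among the 6 libraries of day 10 and -0.59 among those of day 7. Ntsr2 had r = 0.37 with the astrocyte score (rho = 0.35, adjusted permutation p = 0.222 and 0.245, and 0.17 without the 2 farthest). With the choroid plexus score, relations were taken within the 2 clusters of libraries. Oprd1 alone passed, among the 13 libraries with low values (r = -0.84, rho = -0.76, adjusted permutation p = 0.0059 and 0.0395), and r was -0.56 without the 2 farthest.

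**Figure D5:**
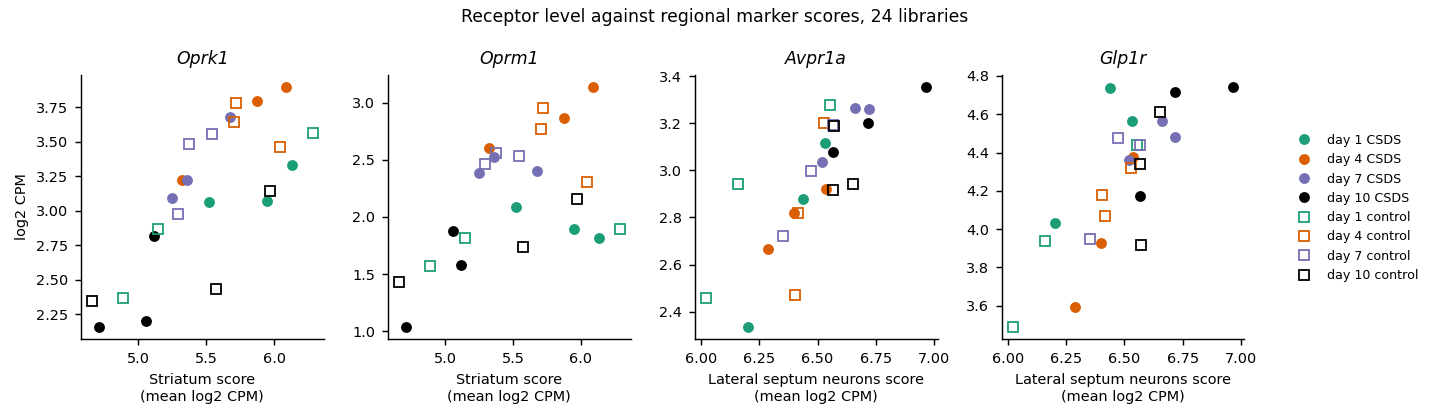
Log2 CPM of Oprk1 and Oprm1 against the striatum score and of Avpr1a and Glp1r against the lateral septum neuron score, 24 libraries, colour by day, filled for CSDS and open for control. Oprk1 (r = 0.75), Avpr1a (r = 0.80) and Glp1r (r = 0.79) follow the score, while Oprm1 (r = 0.50) splits by day, with days 4 and 7 above days 1 and 10.

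Among the 45 pairs of receptors, as a description over 24 libraries that share depth, day and tissue make-up, the closest were Oprk1 with Oprm1 (r = 0.83), Avpr1a with Glp1r (0.64) and Mc4r with Ntsr2 (0.64). The most opposed were Oprm1 with Ntsr2 (-0.65), Crhr2 with Oprk1 (-0.64) and Crhr2 with Oprm1 (-0.58). After group means were removed, the first pair kept 0.55 and Avpr1a with Glp1r 0.65, whereas Oprm1 with Ntsr2 came to -0.05. The last pair was opposed between groups and not within them.

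Of 13439 other genes averaging at least 1 CPM, those most like each receptor were named by their r over the 24 libraries. Oprk1 was closest to Gprin3 (0.95) and to Mme (0.94), which encodes neprilysin, a peptidase that cuts enkephalins. Oprm1 was closest to Med13 (0.93) and Thsd7a (0.92). Avpr1a was closest to Htr7 (0.89), a serotonin receptor, and to Zic1 (0.86), 1 of the septal markers above. Glp1r was closest to Ano1 (0.90) and Col6a3 (0.86).

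Ntsr2 was closest to Sfxn5 (0.89) and Tmem250-ps (0.88). Crhr1 was closest to Ltk (0.87) and Ajm1 (0.87), and Crhr2 to Cnnm2 (0.82) and Stat5a (0.82). Oprd1 was closest to Asap1 (0.86) and Hlf (0.82), and Mc4r to Srsf4 (0.79) and Maea (0.77). Oxtr had the weakest neighbours, Nudt21 (0.71) and Vstm2b (0.71).

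The genes around the receptors were followed from 4 lists: 13 peptide precursors, 11 related receptors, 9 binding and accessory proteins or peptidases, and 33 G proteins, effectors and regulators. Of these, 8, 6, 9 and 33 were tested. No gene of any list passed in a daily comparison of CSDS with control, in the mean of the days or in the test of a differing response. On days 1, 4, 7 and 10 the median log2 fold change was 0.08, -0.01, -0.07 and -0.24 for the precursors and -0.06, -0.03, 0.07 and 0.16 for the related receptors, so neither list kept one sign. Over the 4 days it ran between -0.09 and 0.11 for the binding proteins, between -0.05 and 0.09 for the transducers and between -0.01 and 0.02 for all genes.

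Among precursors, Penk, the enkephalin precursor, had the highest median level at 116 FPKM (range 65.8 to 195), followed by Nts for neurotensin at 30.7 FPKM, Pdyn for dynorphins at 19.7 FPKM and Pnoc for nociceptin at 14.6 FPKM. Crh stood at 1.35 FPKM and Pomc at 0.669 FPKM, while Oxt was at 0 reads in 8 libraries and reached 155 reads in control replicate 1 of day 10. The smallest p on day 4 belonged to Pnoc, which averaged 24.8 ± 4.97 CPM in CSDS libraries and 34.8 ± 4.30 CPM in controls (log2 fold change -0.49, SE 0.14, adjusted p = 0.296 by edgeR). On day 7 it was Pomc, with 0.543 ± 0.300 CPM in CSDS libraries and 1.03 ± 0.110 CPM in controls (-0.92, SE 0.34, adjusted p = 0.999).

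Other genes with the smallest p were likewise uncalled. On day 1 they included Ramp2, which assists calcitonin-family receptors (0.38, adjusted p = 0.584), Adcy6, an adenylyl cyclase (0.17, adjusted p = 0.601), and Rgs4 (-0.33, adjusted p = 0.608). On day 10 they included Rgs7, which speeds the shut-off of Gi and Go (0.25, adjusted p = 0.27), Grk4, a receptor kinase (-0.65, adjusted p = 0.272), and Mme (-0.42, adjusted p = 0.468). Ntsr1, the high-affinity neurotensin receptor, had -0.26 on day 1 and 0.30 on day 10 (adjusted p = 0.773 and 0.519).

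Between days the surrounding genes did pass. Averaged over both conditions, 4 of 8 precursors (Oxt, Penk, Pnoc and Nts), 2 of 6 related receptors (Mc3r and Gipr), 4 of 9 binding proteins and peptidases (Ramp1, Ramp2, Lnpep and Mme) and 26 of 33 transducers differed, against 60.6% of all genes. Of these, Oxt lay near the floor, with a median of 0.028 CPM, 0 reads in 8 libraries and 155 reads in its highest library. Within conditions the counts, in the same order, were 1, 0, 3 and 20 among CSDS mice, where 47.9% of all genes were called. They were 1, 0, 4 and 12 among controls, where 40.7% of all genes were called. As given above, no gene of these lists passed in the test of a differing response.

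Lnpep and Mme were the peptidases of their list called over days, averaged over both conditions. Dpp4, a peptidase with a median of 0.605 CPM, was not called in that test. Lnpep, which cleaves oxytocin and vasopressin, averaged 71.1 ± 4.82 CPM on day 4 and 34.9 ± 2.44 CPM on day 1 in CSDS libraries, and 63.6 ± 10.5 CPM on day 4 and 36.6 ± 4.97 CPM on day 1 in controls. Its log2 difference was 0.91 (SE 0.12, adjusted p = 4.1e-06). Mme averaged 5.23 ± 0.302 CPM on day 10 and 16.0 ± 3.83 CPM on day 4 in CSDS libraries, and 6.98 ± 2.08 CPM on day 10 and 15.7 ± 1.06 CPM on day 4 in controls, a log2 difference of -1.39 (SE 0.17, adjusted p = 1.1e-06). Lnpep thus rose alongside Oprm1 between days 1 and 4, where 33.6% of all genes were called. Mme fell alongside Oprk1 between days 4 and 10, where 44.8% were called. Since Mme was named above for its likeness to Oprk1 in these same libraries, their shared fall is no separate result.

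Of the transducers, 12 were higher and 8 lower on day 10 than on day 4, where 22.9% of all genes were higher and 21.9% lower. Gnai2, a Gi alpha subunit, was higher (0.34, SE 0.04, adjusted p = 2.1e-06). Grk4 was lower (-1.17, SE 0.16, adjusted p = 4.3e-06), and so was Rgs9 (-1.11, SE 0.25, adjusted p = 8.8e-04), a regulator that is also 1 of the 9 genes of the striatum score.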

How the data were processed

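Lateral septum RNA of 24 libraries was sequenced from a directional poly(A) library as paired reads, per the labels' protocols. The tools and build listed in the submitters' processing notes are fastp, HISAT2, HTSeq and GRCm39, with no versions. The authors deposited raw read counts per gene and FPKM per gene, with 24 sample columns each. The promoter windows come from RefSeq on GRCm38.p6, another build, and no coordinate was carried between builds.

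Counts were filtered with edgeR's filterByExpr (18060 genes kept), scaled by TMM and fitted in R 4.3.3 with edgeR 4.0.16 (glmQLFit, glmQLFTest) with 1 mean per group (16 residual degrees of freedom). P-values are two-sided and Benjamini-Hochberg adjusted over all genes tested. CPM are edgeR's TMM-scaled values, used within a gene, and the deposited FPKM were used between genes. Scores are means of log2 CPM with a prior count of 2. Alternatives used DESeq2 1.42.0 and limma 3.58.1 on log2(FPKM + 1). Correlations used 100000 permutations, so that the smallest p is 1e-05. On data simulated for the day 4 comparison over 17527 genes, 200 of 200 genes with a log2 fold change of 1 were recovered with the right sign. Those genes were drawn from well-counted ones, with a fixed spread and no variation in tissue make-up. The changes set were larger than any daily receptor difference. The simulation therefore checked the code and gives no power for changes of the receptors' size.

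Gene lists and the 10 receptors were chosen with earlier results of these data known. Named were all 10 receptors, list genes that were called or otherwise had the 2 smallest p of their list, of which some are given in full, the 2 genes most like each receptor, and the 3 closest and 3 most opposed pairs. CSDS and control libraries with the same number were not paired: the correlation of their deviations ran from -0.42 to 0.18. Ucn, Ucn2, Avp, Agrp, Avpr1b, Mc1r, Mc2r and Gcgr fell under the count filter, and Gcg and Avpr2 were not analysed here.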

Additional observations from a re-analysis of the deposited data

How the results depend on the processing

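For CSDS against control, the count of receptors called was 0 on every day, in the mean and in the test of a differing response, under 11 other settings for a day (10 for the mean and the F test) and with any 1 library left out. Of 1020 recomputed daily or mean log2 fold changes, 998 moved by less than 1 standard error, 22 moved further, and none was called. Counts over all genes depended more on the setting: on day 10, 30 genes were called, with 0 to 128 under other settings, on day 4 it was 20 (8 to 70), on day 1 it was 1 (0 to 23), on day 7 it was 1 (0 to 11), in the mean 21 (12 to 60), and in the F test 4 (0 to 198). With 1 library left out, the counts ran from 1 to 45 on day 10 (1 without CSDS replicate 1 or 3, 45 without control replicate 3), from 3 to 18 on day 4 (3 without CSDS replicate 2), from 0 to 1 on day 1, were 0 on day 7, and ran from 12 to 26 in the mean and from 1 to 20 in the F test.

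Between days, the 4 receptors called among controls became 2 with limma on log2(FPKM + 1) without a filter, and 2 to 5 with 1 library left out, 2 of them without control replicate 3 of day 1 or control replicate 1 of day 10. The count among CSDS mice ran from 3 to 6. For day 10 minus day 1, 3 became 1 with the score covariates and 1 with limma without a filter, and 1 to 4 with 1 library left out, 1 of them without control replicate 2 of day 1. For day 7 minus day 1, 4 became 2 with the length trend removed. The cause was not tested. The 5 called over days in both conditions together were 5 or 6 under all other settings and with any library left out. With the replicate block, which the numbers do not warrant, 4 receptors were called among controls, 4 among CSDS mice, 5 in both together and 0 for CSDS against control on each day.

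With 3 libraries a group, the daily 95% intervals of the log2 fold change reached, for example, from -0.85 to 0.30 for Oprk1 on day 10 and from -0.02 to 0.96 for Glp1r on day 1, and counting error adds to the spread of Oprm1 and Mc4r.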
